A study of Homo sapiens with 8 samples.

Results

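The transcriptome of CYP3A4-overexpressing HepG2 cells treated with compound 6 was compared with that of control cells, using 2 replicates treated with compound 6 and 2 DMSO controls, 4 of the 8 RNA-seq samples of the study. The other 4 were treated with compounds 4 and 5 and entered the fit. The names of the deposited count columns mark replicate 1 of compound 4 and of compound 5 as merged, and none of DMSO or compound 6. HepG2 is an established line from a human hepatocellular carcinoma. The derivative used here carries additional CYP3A4 under blasticidin selection, so all 4 samples share the overexpression, and no parental HepG2 sample entered the comparison. Compound 6 is a phenolic plastic antioxidant in which a methylene bridge joins a pair of phenol rings that each carry a cyclohexyl and a methyl group. It was given at the concentration that lowered viability to 50% in a resazurin assay of longer exposure (its IC50). Control cells received 0.2% DMSO, and the study's methods state an exposure of 24 h for all cells. The sample labels record replicate 1 of each group as day 1 and replicate 2 as day 2, so replicate and day cannot be told apart. No source used here says that the replicates were separate cultures, and the p-values then measure only the spread between these samples.

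CYP3A4 is the cytochrome P450 that oxidizes a large share of drugs and other foreign chemicals in the liver. Liver cells answer such chemicals through receptors that induce further detoxifying enzymes, among them the aryl hydrocarbon receptor, PXR and CAR, and through NRF2, which induces antioxidant genes. A shortage of amino acids or other stress activates the integrated stress response, in which the transcription factor ATF4 raises genes of amino acid uptake and synthesis. Cholesterol synthesis is set by the SREBP transcription factors, which raise the enzymes of the pathway when membrane sterol is low.

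The deposited values are estimated read counts per gene. They summed to 9955207 and 11725128 in DMSO replicates 1 and 2 and to 9472261 and 12052136 in compound 6 replicates 1 and 2. In these 4 libraries 3 counts, the smallest amount regarded as measurable, corresponded to between 0.249 and 0.317 CPM, the unit of counts scaled for library size, counting error only. All 13 hepatocyte and HepG2 markers of the marker list were expressed, including albumin (ALB), alpha-fetoprotein (AFP) and HNF4A. Most markers of other cell types were at or near 0. PTPRC, CD163, KDR, TEK, STAB2, COL1A2 and COL3A1 had 0 counts in all 4 libraries. The lists held 1 tested gene of 10 for stellate cells, 1 of 9 for endothelial cells and 3 of 11 for macrophages and leukocytes.

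CYP3A4, the overexpressed enzyme, stood at 198 and 206 CPM in the DMSO libraries and at 170.3 and 170.4 CPM with compound 6. Both treated libraries lay below both controls, but the difference did not pass the test (log2 fold change of -0.25 ± 0.14 SE, adjusted p = 0.344). The CPM values here and below are scaled by TMM, a normalization for library composition, and describe each gene only against itself in the other libraries. A lower level in such bulk RNA can come from fewer cells that express the gene or from less RNA per cell, and these cannot be told apart.

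Of 13404 genes tested, 375 were higher and 215 were lower with compound 6 at a Benjamini-Hochberg adjusted p under 0.05 in the quasi-likelihood test of edgeR. These were 2.8% and 1.6% of the genes, and 4.4% together. At an unadjusted p under 0.05, 2680 genes passed. Of the called genes, 564 were protein-coding, 148 rose by more than 2-fold and 24 fell by more than 2-fold. The groups did not overlap for any of the 590 called genes. The test favours genes whose groups lie apart, so this is a description and no separate support. Over all tested genes, both compound 6 libraries lay above both DMSO libraries in 26.3% and below them in 26.6%. A rank or permutation test of 2 against 2 samples cannot give an exact two-sided p under 0.333, so none was used.

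The treated replicates differed in strength. Against the mean of the DMSO libraries, 439 genes (3.28%) were past 2-fold in replicate 1 and 787 (5.87%) in replicate 2. Restricted to the 11981 genes with at least 10 counts in every sample, these were 121 and 431 genes. Among genes called higher, the median log2 ratio to DMSO was 0.68 in replicate 1 and 1.03 in replicate 2, and 349 of the 375 were further from DMSO in replicate 2. The genes called lower had medians of -0.55 and -0.88, with 203 of 215 further from DMSO in replicate 2. These called genes were selected with both libraries, so the medians are a description.

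The difference between the 2 compound 6 libraries had an SD over genes of 0.442 on the log2 scale, beside 0.397 between the DMSO libraries, 0.455 between the compound 4 libraries and 0.424 between the compound 5 libraries. In a chi-square comparison of counts the replicates of both groups differed by more than sampling noise, with a statistic per degree of freedom of 9.64 for compound 6 and 5.82 for DMSO. No pair was therefore treated as duplicates. The scatter of both libraries against DMSO shows the called genes mainly on the far side of the diagonal.

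**Figure D1:**
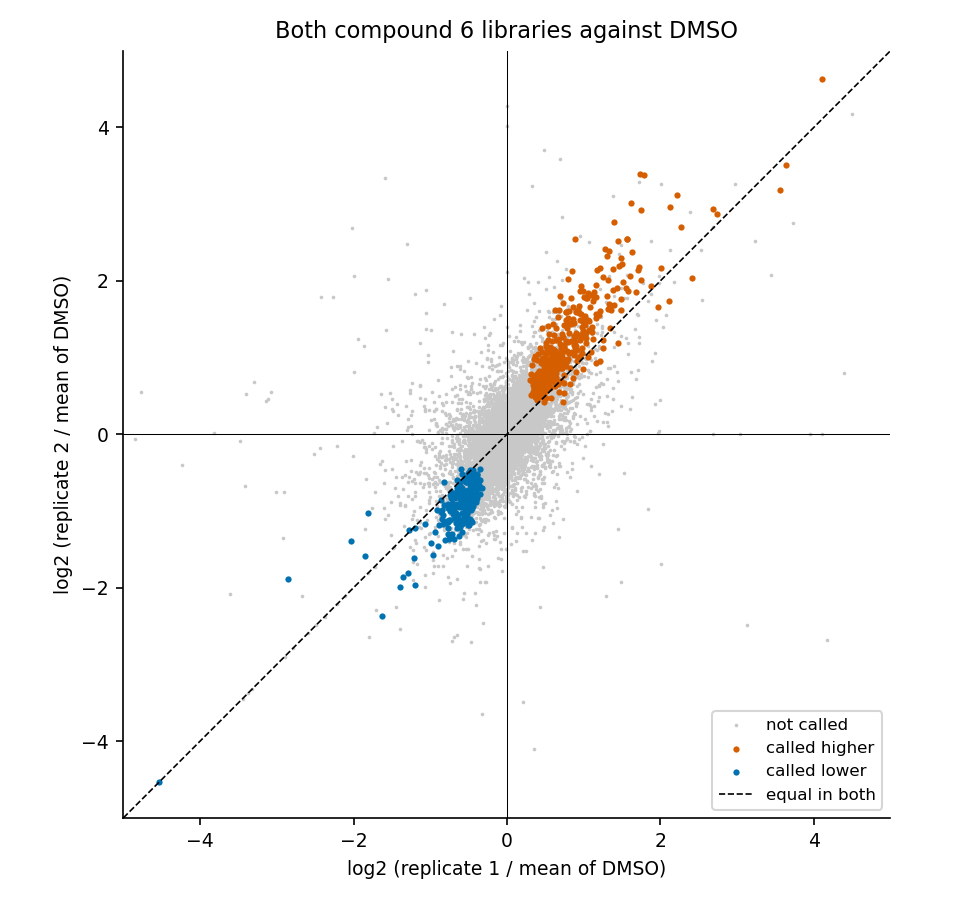
Log2 ratio of compound 6 replicate 1 (horizontal) and of compound 6 replicate 2 (vertical) to the mean of the DMSO libraries, each point 1 of 13401 genes within the axis limits, with 3 genes outside them; CPM values were offset by a prior count of 2 before the logarithm. The 375 genes called higher (orange) and the 215 called lower (blue) lie mainly beyond the dashed line of equal ratios, toward replicate 2.

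The number of calls depended on single libraries. Without compound 6 replicate 1 there were 1001 calls, of which 533 were among the 590. Without compound 6 replicate 2 there were 49, of which 47 were among them. Without DMSO replicate 1 there were 90 (84 among the 590), and without DMSO replicate 2 there was 1. The median log2 fold change of the 375 genes was 1.06, 0.69, 0.90 and 0.83 in these fits, in the order given, and that of the 215 genes was -0.86, -0.55, -0.74 and -0.70. The genes were selected with the same libraries, so these medians are a description. Leaving out a DMSO library raised the median standard error of these genes from 0.157 to 0.198 (replicate 1) or 0.199 (replicate 2). In such a fit, the group left with 1 library is assumed to vary like the other groups.

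Genes were grouped into 53 lists of pathways, complexes and markers, chosen with earlier results of these data known. The largest median shifts among the lists with more than 1 tested gene were those of the integrated stress response upward and of sterol synthesis, mitotic kinesins and mitotic kinases downward, and the plot of list medians sets both replicates side by side. Counts of called members are to be read against the 2.8% of all genes called higher and the 1.6% called lower. Since the lists were not chosen blind to the results, an excess over these shares is a description and not a test. Over all tested genes the median log2 fold change was 0.00.

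**Figure D2:**
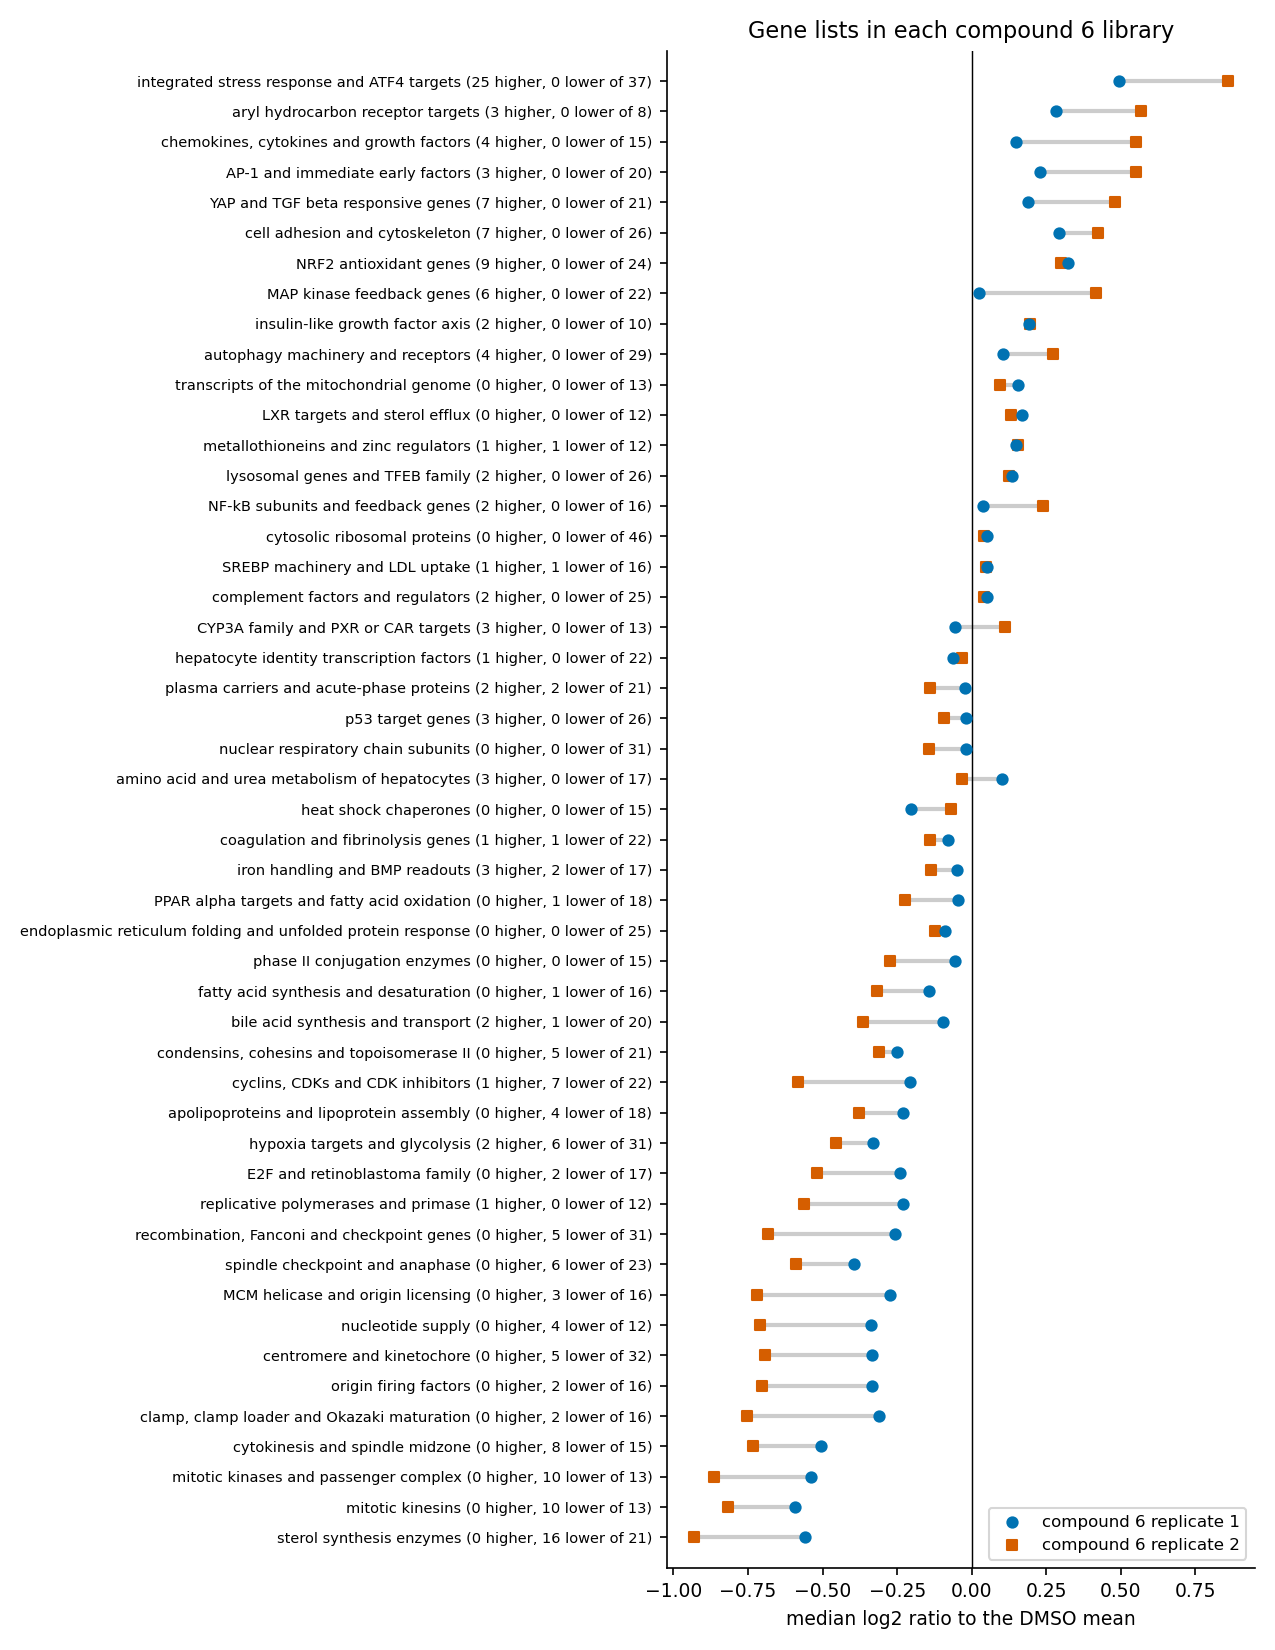
Median log2 ratio to the DMSO mean over the tested members of each list (horizontal), for compound 6 replicate 1 (circles) and replicate 2 (squares), with the members called higher and lower beside each list name. The integrated stress response list had medians of 0.50 and 0.86 and the sterol synthesis list -0.56 and -0.93 in replicates 1 and 2.

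Most genes of the integrated stress response rose. Of 37 tested members, 25 were called higher and 0 lower, beside 2.8% called higher among all genes, and the median log2 fold change was 0.75. Both treated libraries lay above both controls for 35 of the 37, beside 26.3% of all genes. ASNS, the asparagine synthetase (GRCh38, chr7:97852118-97872542), had 63.7 and 56.7 CPM in the DMSO libraries and 153 and 194 CPM with compound 6, a 2.89-fold increase (log2 fold change of 1.53 ± 0.13 SE, adjusted p = 0.00151). ATF4, the transcription factor of the pathway, had 407 and 406 CPM in DMSO against 525 and 647 CPM with compound 6 (log2 fold change of 0.53 ± 0.12 SE, adjusted p = 0.0381).

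A C/EBP-ATF response element, at which ATF4 pairs with C/EBP proteins, was searched as the letters TGATGNAA on both strands of promoters from 250 bases before to 50 bases after the start site. It was present for 13 of the 34 list genes that could be matched (38.24%) and for 4.457% of 27305 genes (RefSeq promoters, GRCh38.p14). Here and below, a gene was counted if any of its promoters held a match. This motif was chosen after the fold changes had been seen. The stretches below show it, in capitals, in 5 promoters of called genes and read 5′ to 3′ on the strand of the gene, from chr7:97872442-97872503 (ASNS, minus strand), chr7:30594818-30594877 (GARS1, plus), chr19:46784877-46784938 (SLC1A5, minus), chr16:70289659-70289720 (AARS1, minus) and chr19:33374044-33374105 (CEBPG, plus). In GARS1 and AARS1 the motif lies on the opposite strand, so its reverse complement is in capitals. A match describes the letters and not a site of binding. The stretches are shown because the list they belong to held the largest share of genes called higher among lists with more than 1 tested gene.
ASNS: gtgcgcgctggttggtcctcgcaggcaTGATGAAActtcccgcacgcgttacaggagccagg
GARS1: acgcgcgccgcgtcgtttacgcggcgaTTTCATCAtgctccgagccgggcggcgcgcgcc
SLC1A5: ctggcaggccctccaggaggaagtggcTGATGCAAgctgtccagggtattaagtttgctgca
AARS1: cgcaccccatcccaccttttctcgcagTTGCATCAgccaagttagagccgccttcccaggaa
CEBPG: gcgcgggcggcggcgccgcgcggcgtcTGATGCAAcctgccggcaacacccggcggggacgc

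Amino acid transporters were among the members that rose. SLC7A11, the cystine importer, went from 54.97 and 53.2 CPM in the controls to 141 and 200.1 CPM (log2 fold change of 1.66 ± 0.24 SE, adjusted p = 0.00642). Its partner chain SLC3A2 changed by 0.98 ± 0.17 SE, adjusted p = 0.0125. SLC7A1, SLC7A5, SLC1A5 and SLC38A2, which carry cationic and neutral amino acids, rose by between 0.44 (SLC38A2) and 0.64 (SLC7A1) on the log2 scale. With the day as a block SLC38A2 and SLC7A1 had adjusted p-values of 0.0518 and 0.0518.

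Enzymes of serine and one-carbon metabolism rose in part. MTHFD2 and SHMT2, mitochondrial enzymes of the folate cycle, changed by 0.93 ± 0.17 and 0.58 ± 0.12 (SE). PSAT1 of serine synthesis changed by 0.60 ± 0.11, while PHGDH and PSPH of the same pathway stood at 0.14 ± 0.11 and -0.05 ± 0.11 and were not called. CTH and CBS, the enzymes that make cysteine from homocysteine, rose by 1.03 ± 0.18 and 0.53 ± 0.12.

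The secreted stress hormone GDF15 had the largest fold change of the list. It rose from 392 and 293 CPM in the controls to 840.3 and 1703 CPM, with the highest value in compound 6 replicate 2 (log2 fold change of 1.89 ± 0.27 SE, adjusted p = 0.00616). ADM2, another secreted peptide, rose by 1.43 ± 0.19. The stress transcription factors and regulators DDIT3 (1.24 ± 0.27, adjusted p = 0.0507 with the day as a block), TRIB3 (0.86 ± 0.19), NUPR1 (1.42 ± 0.19) and SESN2 (0.90 ± 0.19) also rose. ATF3 (0.84 ± 0.28) and PPP1R15A (0.98 ± 0.27), which rise early in this response, had adjusted p-values of 0.121 and 0.0672. The number of members called higher was 29, 3, 6 and 0 without compound 6 replicate 1, compound 6 replicate 2, DMSO replicate 1 and DMSO replicate 2.

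Chaperones of the endoplasmic reticulum did not pass the test in the same samples. Of 25 tested members of the folding and unfolded protein response list, 0 were called in edgeR, and DESeq2 called 2. In edgeR 8 had an unadjusted p under 0.05, beside 2680 of 13404 genes. The median log2 fold change was -0.14. Both treated libraries lay below both controls for 14 of the 25 and above them for 5, beside 26.6% and 26.3% of all genes. HSPA5, the main chaperone of this compartment, had 1309 and 1320.1 CPM in DMSO against 1165 and 1050.0 CPM with compound 6 (-0.25 ± 0.10 SE, adjusted p = 0.214). ERN1, the stress sensor IRE1, had the largest value of the list at 0.67 ± 0.20 SE, adjusted p = 0.0905. The 15 tested cytosolic heat shock chaperones had 0 calls in edgeR, 4 at an unadjusted p under 0.05 and 2 in DESeq2.

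**Figure D3:**
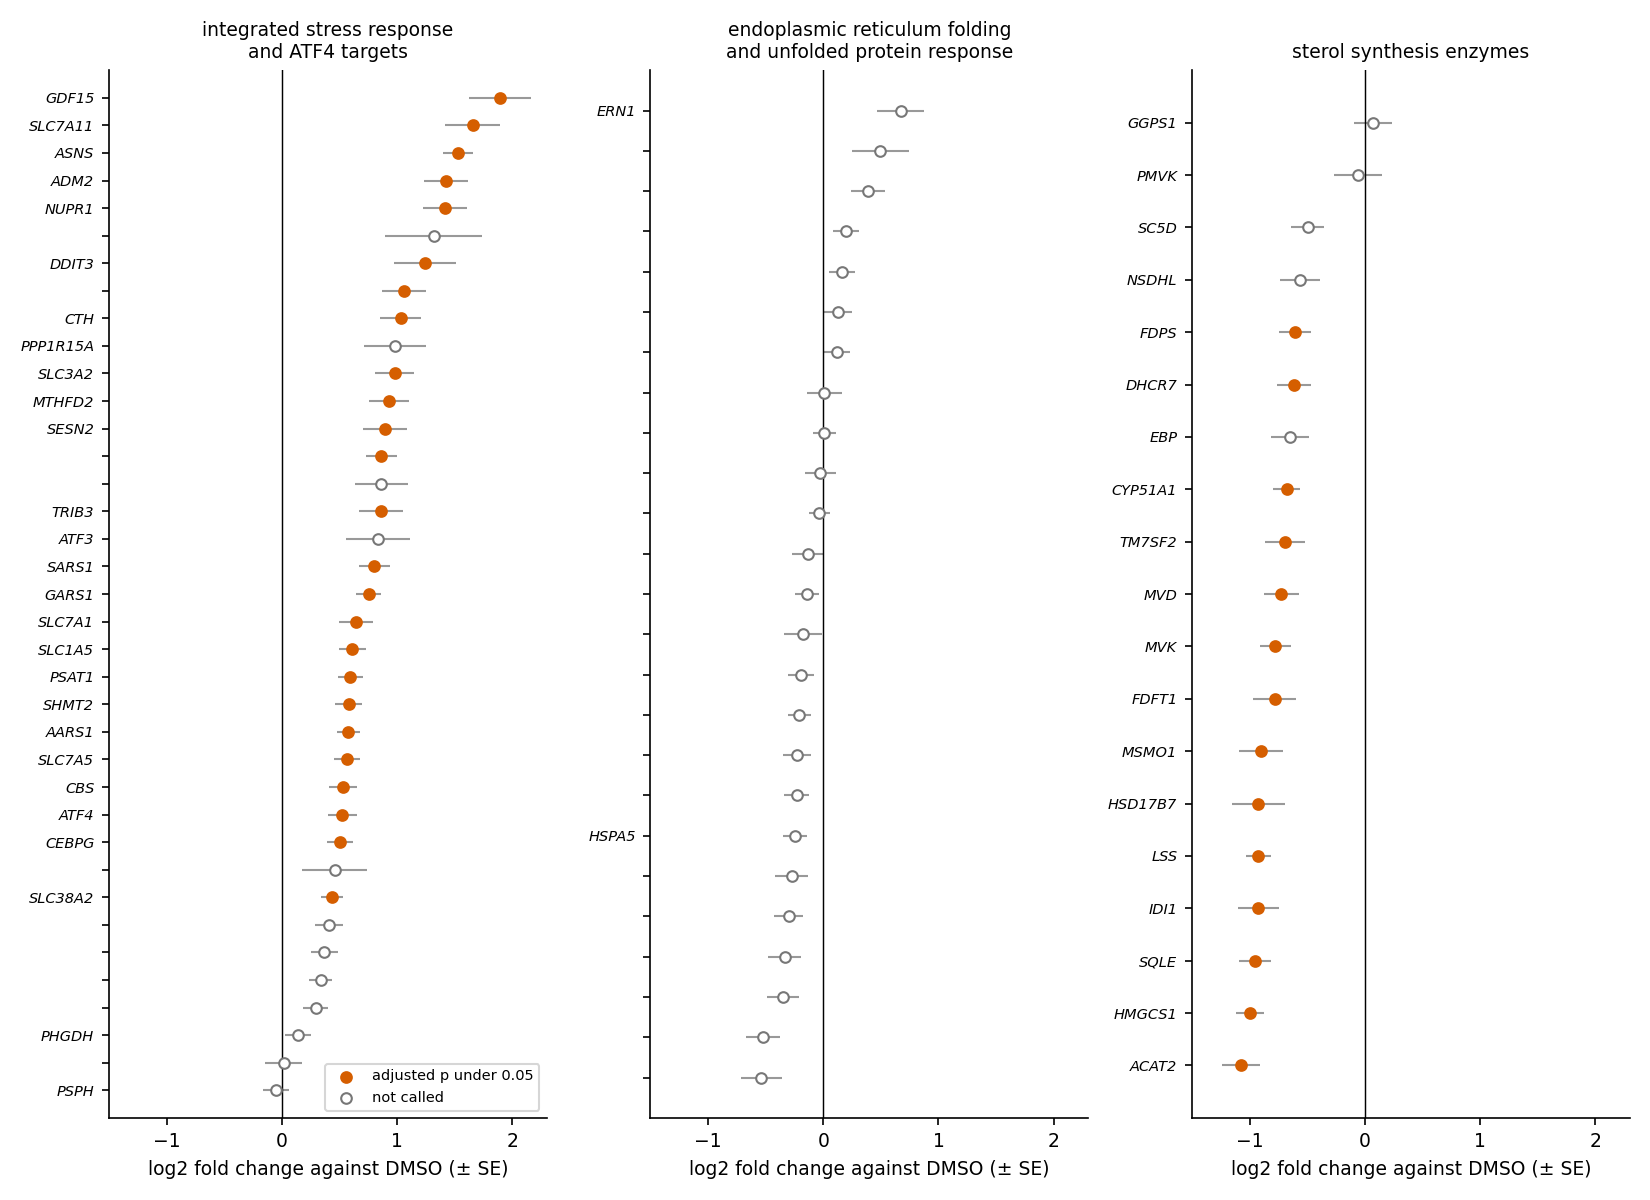
Log2 fold change of compound 6 against DMSO (horizontal, ± SE from the edgeR fit of all 8 samples) for tested members of 3 lists, with names for those the text describes; orange points passed an adjusted p of 0.05 and open points did not. The stress response list holds 25 called members, all to the right of 0, the endoplasmic reticulum list holds 0, and the 19 sterol enzymes drawn hold 14, all to the left.

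Most enzymes of cholesterol synthesis fell. Of 21 tested members of the sterol synthesis list, 16 were called lower and 0 higher, beside 1.6% called lower among all genes, and the median log2 fold change was -0.72. HMGCS1, a synthase of an early step (GRCh38, chr5:43289395-43313512), had 149 and 148 CPM in DMSO against 83.1 and 66.1 CPM with compound 6 (-0.996 ± 0.12 SE, adjusted p = 0.00465). ACAT2, which makes the acetoacetyl-CoA at the start of the pathway, had 162 and 152 CPM and 89.4 and 60.5 CPM (-1.07 ± 0.16 SE, adjusted p = 0.00847). For these genes both treated libraries were below both controls, and replicate 2 was the lower.

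The lower members included later steps. The squalene epoxidase SQLE had 174 and 187 CPM in the controls and 95.8 and 90.7 CPM after treatment (-0.95 ± 0.14 SE, adjusted p = 0.0066). LSS, IDI1, MSMO1, HSD17B7, FDFT1, MVK, MVD, TM7SF2, CYP51A1, DHCR7 and FDPS changed by between -0.92 (IDI1) and -0.61 (FDPS). EBP, NSDHL and SC5D stood at -0.65, -0.56 and -0.50 without passing the threshold, and PMVK and GGPS1 were at -0.06 and 0.07. With the day as a block 11 were called lower, and HSD17B7, FDFT1, TM7SF2, DHCR7 and FDPS had adjusted p-values between 0.0568 (FDPS) and 0.0701 (HSD17B7). The number called lower was 19, 3, 4 and 0 without compound 6 replicate 1, compound 6 replicate 2, DMSO replicate 1 and DMSO replicate 2.

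The list of SREBP machinery and LDL uptake did not move as a group. Of 16 tested members, 1 was higher and 1 was lower, with a median of 0.04. SREBF2, SREBF1 and SCAP, the transcription factors and their escort, stood at 0.03, 0.30 and -0.01. INSIG1 was listed at 0 in all 4 libraries.

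A sterol regulatory element, searched as TCACNCCAC on both strands of the promoters, was present for 0 of 16 matched genes of the sterol list and for 1.388% of all genes. That says only that these letters were not in the windows of 300 bases.

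Other lipid genes changed less. The 12 tested LXR targets had 0 calls in edgeR and DESeq2, and 3 had an unadjusted p under 0.05. Of 16 tested genes of fatty acid synthesis, PNPLA3, a lipid droplet hydrolase, was called lower (-0.74 ± 0.16 SE, adjusted p = 0.0321), and SCD, FASN and ACLY stood at -0.38, -0.27 and -0.17. FABP1, the liver fatty acid binding protein, had 420.4 and 322 CPM in DMSO against 258 and 163 CPM with compound 6 (-0.82 ± 0.20 SE, adjusted p = 0.0448), the call among 18 tested PPAR alpha and fatty acid oxidation genes. A single call in lists of 16 and 18 is near the 4.4% called among all genes. PNPLA3 and FABP1 were called without compound 6 replicate 1 and in none of the other 3 fits that left out a library.

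Among apolipoproteins and lipoprotein assembly, 4 of 18 tested members were lower (1.6% of all genes) and 0 were higher, with a median of -0.33. APOC3, which slows the clearance of triglyceride-rich particles, had 53.6 and 40.3 CPM in the controls and 19.9 and 15.1 CPM after treatment (-1.43 ± 0.22 SE, adjusted p = 0.0088). APOA5 had 86.8 and 77.5 CPM and 53.1 and 32.5 CPM (-0.95 ± 0.21 SE, adjusted p = 0.0335, and 0.051 with the day as a block). LCAT, which esterifies cholesterol on HDL, changed by -0.84 ± 0.16, and APOA1, the main protein of HDL, by -0.74 ± 0.17, adjusted p = 0.0576 with the day as a block. APOB and APOE stood at 0.27 and 0.10 and were not called. In the fit with the day as a block 2 of the 4 calls were made, and 5, 0, 0 and 0 members were called lower without compound 6 replicate 1, compound 6 replicate 2, DMSO replicate 1 and DMSO replicate 2.

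DNA replication genes had small differences, most of them below 0. Over 72 tested members of the lists for origin licensing, origin firing, polymerases, clamp and nucleotide supply, the median log2 fold change was -0.48, with -0.30 in replicate 1 and -0.71 in replicate 2. In 63 of the 72, both treated libraries were below both controls, beside 26.6% of all genes. Of these members 11 were called lower and 1 higher, beside 1.6% and 2.8% of all genes, and 49 had an unadjusted p under 0.05, beside 2680 of 13404. TK1, the thymidine kinase of S phase, had 142 and 131 CPM in DMSO against 95.6 and 60.3 CPM with compound 6 (-0.81 ± 0.19 SE, adjusted p = 0.0382, and 0.0558 with the day as a block). FEN1, the flap nuclease of Okazaki fragments, had 103 and 95.97 CPM and 70.6 and 43.8 CPM (-0.80 ± 0.18 SE, adjusted p = 0.0321).

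MCM2, a subunit of the replicative helicase, changed by -0.60 ± 0.13, and GMNN, the inhibitor of licensing, by -0.64 ± 0.15, adjusted p = 0.0576 with the day as a block. TICRR and CLSPN, which act in origin firing and fork checkpoint signalling, changed by -0.88 ± 0.22, adjusted p = 0.0615 with the day as a block and -0.78 ± 0.19. The nucleotide enzyme RRM2 changed by -0.63 ± 0.15, adjusted p = 0.0576 with the day as a block. None of the 4 nucleotide supply genes called lower was called with the day as a block. POLD4, a small subunit of polymerase delta, went the other way, from 8.95 and 7.55 CPM to 12.9 and 21.8 CPM (1.09 ± 0.23 SE, adjusted p = 0.0272). In the fit with the day as a block 5 members were called lower. The number called lower was 39, 0, 0 and 0 without compound 6 replicate 1, compound 6 replicate 2, DMSO replicate 1 and DMSO replicate 2.

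A part of the mitosis genes fell. Over 116 tested members of 6 lists the median log2 fold change was -0.57, with -0.41 in replicate 1 and -0.69 in replicate 2. Of these 43 were called lower and 0 higher, beside 1.6% called lower among all genes. Both treated libraries lay below both controls for 101 of them, beside 26.6% of all genes. The shares were highest for the mitotic kinesins and for the mitotic kinases with the chromosomal passenger complex, with 10 of 13 called lower in each list. The number of mitosis genes called lower was 52, 1, 4 and 0 without compound 6 replicate 1, compound 6 replicate 2, DMSO replicate 1 and DMSO replicate 2.

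KIF20A, a kinesin of cytokinesis (GRCh38, chr5:138178719-138187715), had 70.3 and 76.2 CPM in DMSO against 39.1 and 26.7 CPM with compound 6, 2.24-fold lower (-1.16 ± 0.16 SE, adjusted p = 0.00576). KIF11, which pushes the spindle poles apart, had 64.1 and 70.2 CPM and 39.3 and 30.2 CPM (-0.96 ± 0.14 SE, adjusted p = 0.00616). KIFC1, a kinesin of spindle pole focusing, had 61.6 and 58.7 CPM and 36.4 and 30.4 CPM (-0.85 ± 0.12 SE, adjusted p = 0.0066). For all 3 the groups did not overlap, and compound 6 replicate 2 was the lowest library.

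Among the kinases, PLK4 of centriole duplication changed by -0.88 ± 0.18, AURKB by -0.86 ± 0.16, PLK1 by -0.73 ± 0.13 and AURKA by -0.65 ± 0.13. BIRC5, the survivin subunit of the passenger complex, had 177 and 167 CPM in the controls and 113 and 76.5 CPM with compound 6 (-0.86 ± 0.16 SE, adjusted p = 0.0176). TOP2A, the topoisomerase that untangles chromosomes, had 469 and 535 CPM and 334 and 245 CPM (-0.79 ± 0.14 SE, adjusted p = 0.0144). The condensin subunits NCAPG and NCAPH changed by -0.79 ± 0.16 and -0.71 ± 0.13.

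At the kinetochore, CENPI had 14.5 and 17.7 CPM in DMSO against 8.12 and 5.26 CPM with compound 6 (-1.28 ± 0.25 SE, adjusted p = 0.0183), and CENPW and ZWINT changed by -0.86 ± 0.18 and -0.81 ± 0.13. Of 32 tested centromere and kinetochore genes, 5 were lower (1.6% of all genes) and 0 were higher, although all 32 estimates were below 0. ESPL1, the separase that cuts cohesin, changed by -0.85 ± 0.16, SGO2, which shields cohesin, by -0.72 ± 0.13, and the checkpoint kinase TTK by -0.63 ± 0.15, adjusted p = 0.0547 with the day as a block. DLGAP5, SPAG5 and NUSAP1 of the spindle changed by -0.90, -0.78 and -0.84. NUSAP1 shares 61.4% of its 31-base stretches with other transcripts, so its estimate is uncertain.

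**Figure D4:**
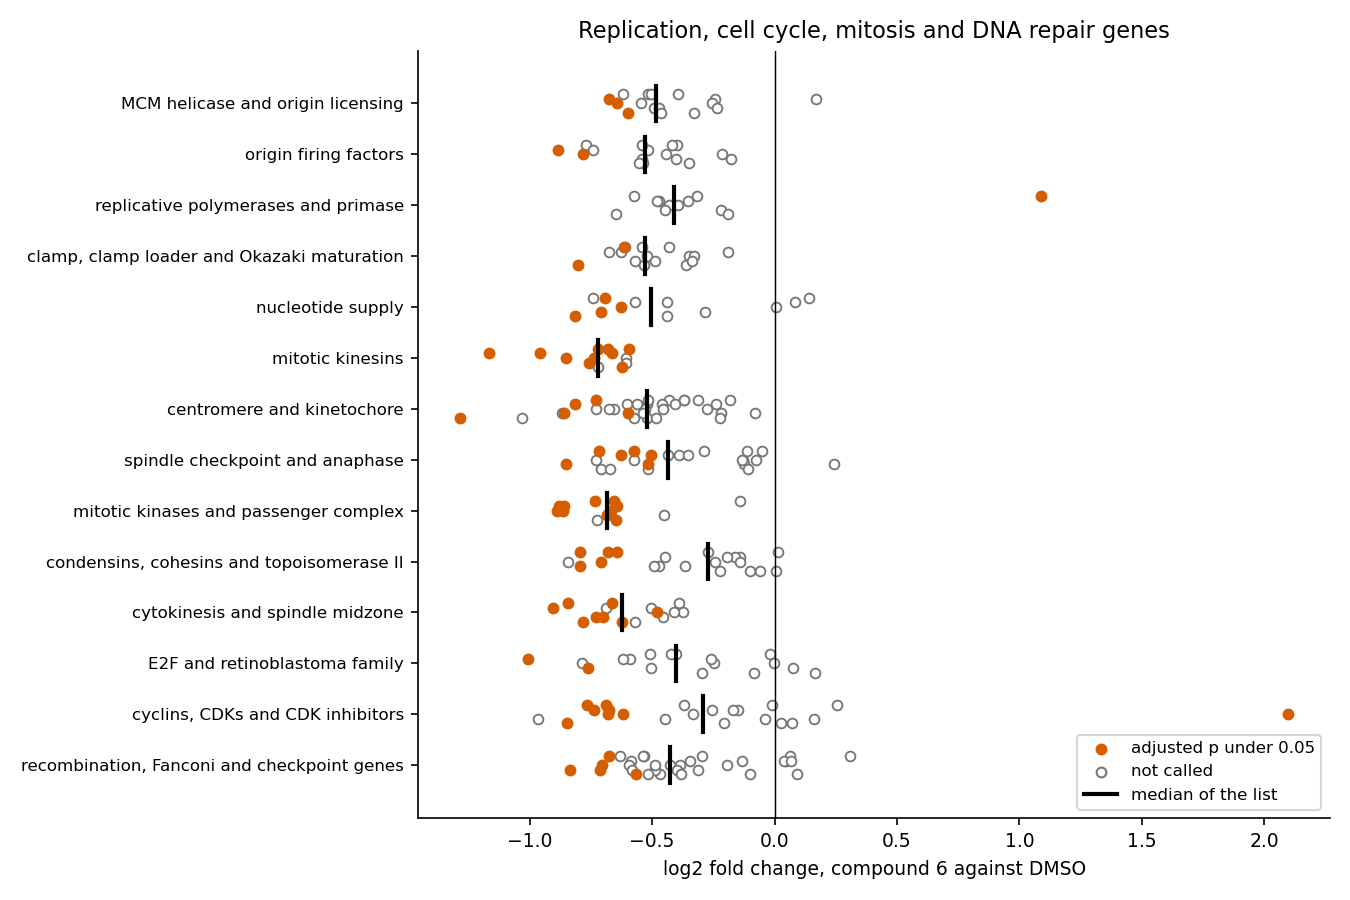
Log2 fold change of compound 6 against DMSO (horizontal) for every tested member of 14 lists of replication, mitosis, cell cycle control and DNA repair; orange points passed an adjusted p of 0.05 in edgeR, open points did not, and bars mark the list medians, which run from -0.72 for the kinesins to -0.27 for the condensins. POLD4 and CDKN2B are the orange points to the right of 0.

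MKI67, the proliferation antigen, had 185 and 271 CPM in DMSO against 169 and 137 CPM with compound 6. The DMSO libraries themselves were far apart for this gene, and the difference did not pass the test (-0.58 ± 0.28 SE, adjusted p = 0.281).

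The cell cycle homology region, an element of genes that peak in mitosis, was searched as TTTGAA on both strands. It was present in promoters of 56 of 97 matched genes of the mitosis lists (57.73%), of 10.17% of 59 replication genes and of 18.17% of all genes. An E2F site, searched as TTTNNCGC on both strands, was in promoters of 50.85% of the replication genes, 22.68% of the mitosis genes and 8.226% of all. The following promoter stretches of called mitosis genes show the cell cycle homology region in capitals, 5′ to 3′ on the strand of the gene. They come from chr10:92593075-92593129 (KIF11, plus strand), chr14:55191662-55191721 (DLGAP5, minus), chr12:53268241-53268298 (ESPL1, plus) and chr10:56361260-56361317 (ZWINT, minus). In KIF11, DLGAP5 and ZWINT the motif is on the opposite strand.
KIF11: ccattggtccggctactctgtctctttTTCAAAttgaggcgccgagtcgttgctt
DLGAP5: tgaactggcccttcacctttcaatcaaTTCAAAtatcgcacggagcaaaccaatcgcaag
ESPL1: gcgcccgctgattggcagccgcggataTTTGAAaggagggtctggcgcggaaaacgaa
ZWINT: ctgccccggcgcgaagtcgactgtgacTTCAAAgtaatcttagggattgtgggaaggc

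Several cyclins and kinases of G2 and mitosis fell while those of G1 did not pass the test. CDK1, CCNA2, CCNB1, CCNB2, CCNF, CDC25C and CDKN3 were the 7 members called lower of 22 tested, beside 1.6% of all genes, with log2 fold changes between -0.85 (CDKN3) and -0.62 (CCNF). CCNA2 had an adjusted p of 0.0604 when the day was a block. CCND1, CCNE1, CDK4 and CDK2 stood at 0.16, -0.01, -0.04 and -0.33, and whether they differ from the first group was not tested. CDKN2B, a p15 inhibitor of CDK4 and CDK6, rose from 0.688 and 0.657 CPM to 2.40 and 3.37 CPM (2.10 ± 0.40 SE, adjusted p = 0.0189). E2F7 and FOXM1, which control cell cycle transcription, changed by -1.01 ± 0.23 and -0.76 ± 0.16. In these 22 genes 11, 0, 0 and 0 were called lower without compound 6 replicate 1, compound 6 replicate 2, DMSO replicate 1 and DMSO replicate 2.

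Targets of p53, the transcription factor of the DNA damage response, lay on both sides of 0. CDKN1A, the p21 inhibitor and the best known target, had 61.3 and 56.9 CPM in DMSO against 71.1 and 69.8 CPM with compound 6 and was not called (0.26 ± 0.11 SE, adjusted p = 0.215). Of 26 tested targets, GDF15, SESN2 and PLK3 were higher (2.8% of all genes) and 0 were lower, and the median was -0.07. GDF15 and SESN2 also belong to the stress response list. PLK3 had 9.93 and 9.44 CPM in the controls and 15.4 and 28.3 CPM after treatment (1.19 ± 0.30 SE, adjusted p = 0.0496). MDM2, BAX and BBC3 stood at -0.02, -0.23 and 0.01. SESN1, DDB2, PHLDA3, BTG2, PPM1D and FDXR stood between -0.74 (SESN1) and -0.43 (FDXR), with adjusted p-values in edgeR from 0.0582 (SESN1) to 0.0855 (FDXR). In these genes both treated libraries lay below both controls, as in 11 of the 26 targets (26.6% of all genes), and in 7 they lay above, a share near the 26.3% of all genes. In the fits without compound 6 replicate 1, compound 6 replicate 2, DMSO replicate 1 and DMSO replicate 2, 5, 1, 1 and 0 targets were called higher.

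Of 31 tested genes of recombination, the Fanconi pathway and checkpoints, 5 were lower and 0 were higher, beside 1.6% of all genes called lower, with a median of -0.43. They were RAD51AP1 (-0.83 ± 0.19), BLM (-0.71 ± 0.17, adjusted p = 0.0598 with the day as a block), CHEK1 (-0.70 ± 0.14), RAD54L (-0.68 ± 0.16) and FANCD2 (-0.56 ± 0.14, adjusted p = 0.068 with the day as a block). The block by day left 3 of them called. BRCA1, BRCA2 and ATM stood at -0.47, -0.30 and 0.31. The number called lower was 11, 0, 0 and 0 without compound 6 replicate 1, compound 6 replicate 2, DMSO replicate 1 and DMSO replicate 2.

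Some genes of the xenobiotic response rose. CYP1A1, the classical target of the aryl hydrocarbon receptor (GRCh38, chr15:74719542-74725610), had 4.13 and 3.20 CPM in DMSO against 16.5 and 29.4 CPM with compound 6, a 6.35-fold increase (2.67 ± 0.31 SE, adjusted p = 0.00425). The receptor gene AHR rose from 179 and 176 CPM to 265 and 310.1 CPM (0.70 ± 0.11 SE, adjusted p = 0.0101). Of 8 tested members of this list, 3 were higher (2.8% of all genes) and 0 were lower, and the other was the transporter SLC7A5, which is also in the stress response list. TIPARP, ALDH3A1 and UGT1A6, further targets, stood at -0.15, 0.57 and 0.53. The number called higher was 3, 1, 1 and 0 without compound 6 replicate 1, compound 6 replicate 2, DMSO replicate 1 and DMSO replicate 2.

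CYP3A5, CYP2B6 and ABCC2 were the 3 calls among 13 tested genes of the CYP3A family and of PXR or CAR, all higher, beside 2.8% of all genes. CYP2B6, a typical CAR target, had 5.21 and 3.37 CPM in the controls and 9.58 and 12.3 CPM after treatment (1.38 ± 0.29 SE, adjusted p = 0.0286). CYP3A5 had 1.57 and 1.48 CPM and 4.48 and 3.70 CPM (1.41 ± 0.32 SE, adjusted p = 0.0355). ABCC2, the export pump of conjugates into bile, had 574 and 633 CPM and 945 and 1171 CPM (0.81 ± 0.13 SE, adjusted p = 0.00879). CYP3A7 and ABCB1 stood at -0.46 and 0.12. Of 15 tested phase II conjugation enzymes 0 were called by edgeR or DESeq2, and 5 had an unadjusted p under 0.05. The number of CYP3A, PXR and CAR genes called was 2, 0, 0 and 0 without compound 6 replicate 1, compound 6 replicate 2, DMSO replicate 1 and DMSO replicate 2.

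NRF2 genes were higher in part. Of 24 tested members, 9 were called higher, beside 2.8% of all genes, and 0 lower, with a median of 0.31. ABCC3, an export pump of the basal membrane, had 70.2 and 66.99 CPM in DMSO against 139.6 and 184 CPM with compound 6 (1.24 ± 0.13 SE, adjusted p = 0.00425). GCLM and GCLC, the subunits of the first enzyme of glutathione synthesis, rose by 0.79 ± 0.14 and 0.62 ± 0.12. TXNRD1, the thioredoxin reductase, rose by 0.76 ± 0.14. NQO1 and HMOX1, which are among the best known NRF2 targets, stood at 0.12 ± 0.11 and -0.05 ± 0.10 and were not called. The number called higher was 9, 1, 1 and 0 without compound 6 replicate 1, compound 6 replicate 2, DMSO replicate 1 and DMSO replicate 2.

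MT2A, a metallothionein that binds zinc and copper, had 40.03 and 43.8 CPM in DMSO against 97.4 and 189 CPM with compound 6 (1.78 ± 0.26 SE, adjusted p = 0.0066). SLC30A10, a manganese exporter, fell from 122 and 151 counts in DMSO to 64 and 81 counts (-0.87 ± 0.22 SE, adjusted p = 0.0479, and 0.0539 with the day as a block). These were the calls among 12 tested genes, beside 4.4% of all genes, and MT1X, MT1E and MT1F stood at 0.44, 0.88 and -0.09. Metallothionein genes resemble each other, and 7.25% of the 31-base stretches of MT2A were shared with other genes. A metal response element, searched as TGCNCNC on both strands, was in promoters of 7 of 7 matched genes of this list and of 59.4% of all genes. MT2A was called without either compound 6 replicate and not without either DMSO replicate, and SLC30A10 was called in none of these 4 fits.

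Some growth factor ligands and feedback genes of MAP kinase signalling rose. EREG, a ligand of the EGF receptor family (GRCh38, chr4:74365143-74388751), had 21.9 and 19.3 CPM in the controls and 56.2 and 118 CPM after treatment, a 4.26-fold increase (2.09 ± 0.28 SE, adjusted p = 0.00465). AREG, a related ligand, had 1.67 and 1.56 CPM and 3.12 and 10.3 CPM (2.09 ± 0.48 SE, adjusted p = 0.0377). DUSP5, a phosphatase that switches off ERK, had 1.77 and 1.23 CPM and 5.31 and 17.1 CPM (2.94 ± 0.50 SE, adjusted p = 0.0125). In all 3 genes compound 6 replicate 1 lay between the DMSO libraries and replicate 2.

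EGR1, an immediate early transcription factor, had 3.05 and 3.12 CPM in DMSO against 10.7 and 24.6 CPM with compound 6 (2.53 ± 0.37 SE, adjusted p = 0.00671). SPRY4 and DUSP6, further inhibitors of this pathway, and EPHA2 rose by 1.12 ± 0.18, 0.80 ± 0.11 and 1.04 ± 0.22. Of 22 tested MAP kinase feedback genes 6 were higher and 0 were lower, and of 20 AP-1 and immediate early genes 3 were higher and 0 were lower, beside 2.8% of all genes called higher. FOS, JUN and MYC stood at -0.75, 0.00 and 0.18 and were not called. The median of the MAP kinase list was 0.03 in replicate 1 and 0.42 in replicate 2. Its number called higher was 9, 2, 2 and 0 without compound 6 replicate 1, compound 6 replicate 2, DMSO replicate 1 and DMSO replicate 2, and for AP-1 genes 11, 1, 0 and 0.

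ANKRD1, a target of YAP, had 3.74 and 1.97 CPM in DMSO against 7.39 and 12.7 CPM with compound 6 (1.85 ± 0.32 SE, adjusted p = 0.0125). The receptor kinase AXL had 8.26 and 5.75 CPM and 12.6 and 30.7 CPM (1.66 ± 0.36 SE, adjusted p = 0.0323, and 0.0518 with the day as a block). Of 21 tested YAP and TGF beta responsive genes, 7 were higher (2.8% of all genes) and 0 were lower, with a median of 0.43, whereas the YAP targets CCN1 and CCN2 stood at 0.82 and 0.41 and were not called. The number called higher was 7, 1, 3 and 0 without compound 6 replicate 1, compound 6 replicate 2, DMSO replicate 1 and DMSO replicate 2.

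Adhesion and cytoskeleton genes were higher in 7 of 26 tested members, beside 2.8% of all genes, and lower in 0. KRT23 and KRT19, keratins of bile duct and stressed liver cells, rose by 1.28 ± 0.19 and 0.85 ± 0.14. FLNA, the actin crosslinker filamin A, had 531 and 573 CPM in the controls and 851 and 1171 CPM after treatment (0.87 ± 0.19 SE, adjusted p = 0.0289). ITGA2, a collagen receptor subunit, changed by 0.95 ± 0.22, adjusted p = 0.0552 with the day as a block. KRT8, KRT18 and CDH1, which mark epithelial cells of the liver, stood at -0.05, 0.14 and -0.06. The block by day left 4 members called, and 9, 0, 2 and 0 were called higher without compound 6 replicate 1, compound 6 replicate 2, DMSO replicate 1 and DMSO replicate 2.

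**Figure D5:**
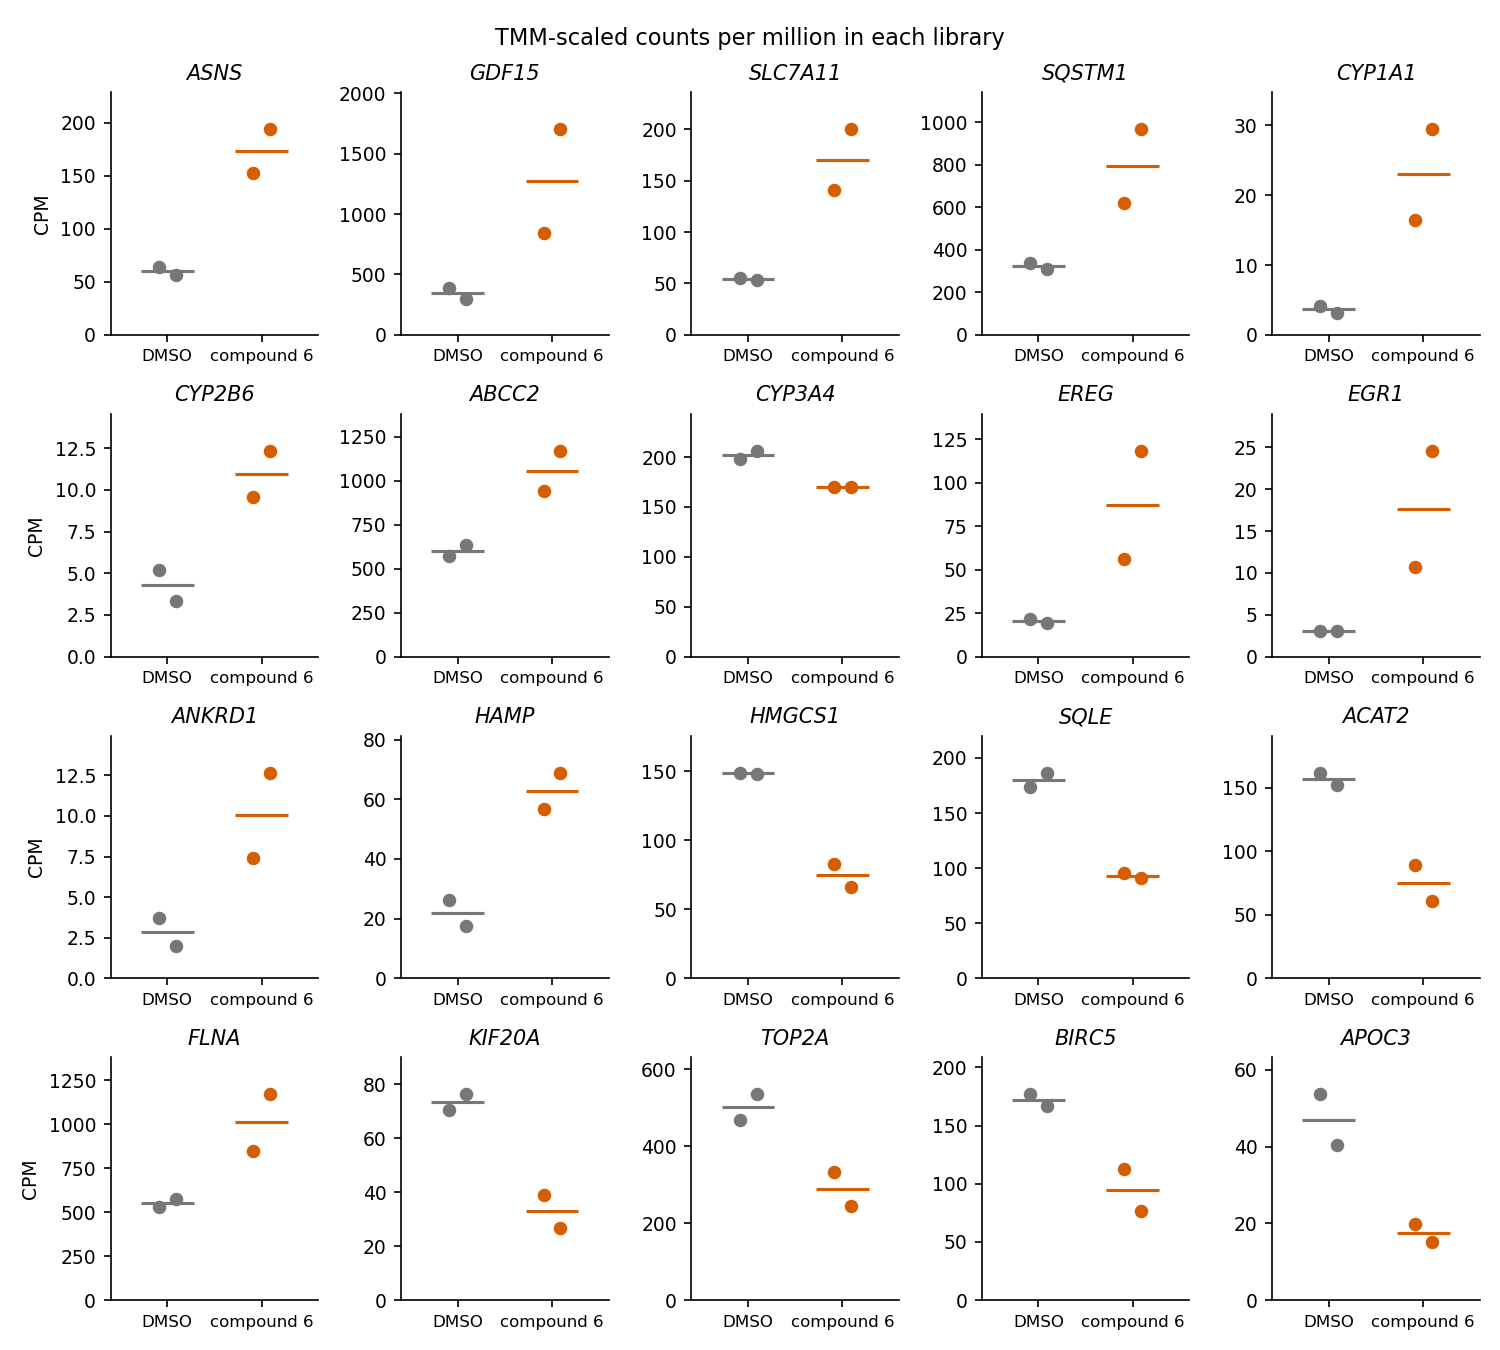
TMM-scaled CPM (vertical, from 0) in each of the 2 DMSO (grey) and 2 compound 6 (orange) libraries for 20 genes, with replicate 1 on the left of each pair and a bar at the mean. The groups are separated in all panels, and CYP3A4, the gene not called among them, has both compound 6 points at 170 CPM.

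Among cytokines and growth factors, 4 of 15 tested genes were higher and 0 were lower, beside 2.8% of all genes called higher. CSF1, the macrophage growth factor, rose by 1.37 ± 0.27, the TWEAK receptor TNFRSF12A by 1.17 ± 0.21 and the chemokine CCL20 by 0.79 ± 0.15. CXCL8 had 4 and 7 counts in DMSO and 14 and 31 counts with compound 6 and was just short of a call (2.03 ± 0.51 SE, adjusted p = 0.051). Of 16 NF-kB genes, ICAM1 and IER3 were higher (0.63 and 0.86), and the feedback genes NFKBIA and TNFAIP3 stood at -0.24 and 0.30. CD55 and MASP1, a complement inhibitor and a protease of the lectin pathway, rose by 1.14 ± 0.20 and 1.08 ± 0.14, the 2 calls among 25 complement genes. The shares of these 2 lists stand beside the same 2.8%. Without compound 6 replicate 2, DMSO replicate 1 or DMSO replicate 2, 0 of the cytokine genes were called.

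Insulin-like growth factor binding proteins 1 and 3 were the calls among 10 tested genes of this axis, beside 4.4% of all genes. IGFBP1 had 1325 and 1049 CPM in DMSO against 1614 and 2484 CPM with compound 6 (0.79 ± 0.19 SE, adjusted p = 0.0403, and 0.0625 with the day as a block). IGFBP3 changed by 0.83 ± 0.19. Both were called without compound 6 replicate 1 and in none of the other fits that left out a library.

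Genes of secreted liver proteins moved in both directions. HAMP, the iron hormone hepcidin, had 26.2 and 17.5 CPM in the controls and 56.7 and 68.9 CPM after treatment (1.53 ± 0.17 SE, adjusted p = 0.00425). BMP6, the ligand that induces hepcidin, rose from 9.74 and 13.1 CPM to 19.5 and 26.6 CPM (1.01 ± 0.19 SE, adjusted p = 0.0166), and the iron exporter SLC40A1 by 0.52 ± 0.12. The BMP readouts ID1, SMAD6 and SMAD7 stood at 0.23, -0.24 and -0.16. TF, the iron carrier transferrin, fell from 5697 and 5464 CPM to 4182 and 3454 CPM (-0.55 ± 0.12 SE, adjusted p = 0.0359, and 0.0547 with the day as a block). HP, haptoglobin, changed by -0.86 ± 0.18, and CPB2, an inhibitor of fibrinolysis, by -0.98 ± 0.15.

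ALB had 18469 and 16358 CPM in DMSO against 16001 and 12548 CPM with compound 6 and was not called (-0.29 ± 0.14 SE, adjusted p = 0.274). Of 21 tested plasma carriers and acute-phase proteins, 2 were higher and 2 were lower, and of 17 iron and BMP genes 3 were higher and 2 were lower, beside 2.8% and 1.6% of all genes. HAMP was called in the fits without compound 6 replicate 1, compound 6 replicate 2 and DMSO replicate 1, and not without DMSO replicate 2 (adjusted p = 0.0818).

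Hepatocyte transcription factors gave 1 call of 22, a share near the 4.4% called among all genes. This was NR0B2, the corepressor SHP (0.73 ± 0.13 SE, adjusted p = 0.0159), while HNF4A and CEBPA stood at 0.02 and -0.24. Of 20 tested bile acid genes 2 were higher and 1 was lower, beside 2.8% and 1.6% of all genes, with a median of -0.23. Besides NR0B2, these were SLC51B, a bile acid exporter subunit, which rose by 0.97 ± 0.18, and KLB, the coreceptor of FGF19, which fell by 0.85 ± 0.15. In amino acid and urea metabolism 3 of 17 tested genes were higher and 0 lower, beside the same shares, with a median of -0.08. NAGS, which makes the activator of the urea cycle, rose from 6.88 and 5.25 CPM to 12.7 and 21.6 CPM (1.52 ± 0.24 SE, adjusted p = 0.00987). GOT1 and ASS1 rose by 0.72 ± 0.13 and 0.52 ± 0.11, and CPS1 stood at -0.15. Of these, NAGS alone was called without DMSO replicate 1, and none was called without compound 6 replicate 2 or without DMSO replicate 2.

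Hypoxia and glycolysis genes had a median log2 fold change of -0.38. Of 31 tested members, 6 were called lower and 2 higher, beside 1.6% and 2.8% of all genes. In 24 of them both treated libraries lay below both controls, beside 26.6% of all genes. SLC2A3, a glucose transporter, had 450.1 and 454 CPM in the controls and 283 and 236 CPM after treatment (-0.80 ± 0.11 SE, adjusted p = 0.00515). PFKFB4, which regulates phosphofructokinase, had 78.2 and 91.5 CPM and 45.7 and 37.3 CPM (-1.03 ± 0.13 SE, adjusted p = 0.00465). PFKP, an isoform of phosphofructokinase, went the other way, with 5.999 and 5.42 CPM and 11.4 and 15.4 CPM (1.24 ± 0.19 SE, adjusted p = 0.00847). SLC2A1, another glucose transporter, rose by 0.67 ± 0.11. VEGFA and CA9, targets of hypoxia-inducible factor, stood at 0.09 and -0.67. The number called lower was 12, 0, 2 and 0 without compound 6 replicate 1, compound 6 replicate 2, DMSO replicate 1 and DMSO replicate 2.

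SQSTM1, the autophagy receptor p62 (GRCh38, chr5:179806398-179838078), had 337 and 309.9 CPM in DMSO against 622 and 968 CPM with compound 6 (1.30 ± 0.17 SE, adjusted p = 0.00465). WIPI1, GABARAPL1 and MAP1LC3B, which act in autophagosome formation, rose by 1.002 ± 0.17, 0.75 ± 0.17 and 0.50 ± 0.12. These were the 4 calls among 29 tested autophagy genes, all higher, beside 2.8% of all genes. Of 26 lysosomal genes the cathepsins CTSL and CTSB were higher, by 0.63 ± 0.13 and 0.59 ± 0.13, beside the same share. The number of lysosomal genes called higher was 3, 0, 0 and 0 in the fits that left out compound 6 replicate 1, compound 6 replicate 2, DMSO replicate 1 and DMSO replicate 2. The number of autophagy genes called higher was 6, 1, 2 and 0 without compound 6 replicate 1, compound 6 replicate 2, DMSO replicate 1 and DMSO replicate 2.

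Lists that serve as a reference gave no calls. The 46 ribosomal protein genes lay between -0.05 and 0.21, with 0 calls in edgeR, 0 at an unadjusted p under 0.05 and 0 in DESeq2. The 31 nuclear respiratory chain genes lay between -0.29 and 0.12, with 0 calls in edgeR, 0 at an unadjusted p under 0.05 and 0 in DESeq2. The 13 transcripts of the mitochondrial genome had 0 calls in edgeR and DESeq2 and 2 at an unadjusted p under 0.05. They lay between -0.04 and 0.46 with a median of 0.17, and 9 of the 13 had both treated libraries above both controls, beside 26.3% of all genes. All genes of the mitochondrial genome, its ribosomal RNAs included, took 4.91% and 5.12% of the counts in DMSO and 5.58% and 6.21% with compound 6.

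The genes with the largest fold changes were mostly of low abundance. FUT1, a fucosyltransferase, had 5 and 2 counts in DMSO and 14 and 58 counts with compound 6 (adjusted p = 0.0236 in edgeR). SLC16A6, a monocarboxylate transporter family member, had 5.70 and 3.04 CPM and 20.8 and 28.2 CPM (2.52 ± 0.26 SE, adjusted p = 0.00425). RASD1, a small GTPase induced by glucocorticoids, had 5.90 and 6.08 CPM and 16.04 and 41.6 CPM (2.28 ± 0.37 SE, adjusted p = 0.0101). MAP1B, a microtubule-associated protein, had 0.787 and 1.81 CPM and 4.06 and 10.9 CPM (2.51 ± 0.52 SE, adjusted p = 0.0259), and in FUT1, RASD1 and MAP1B most of the increase was in replicate 2.

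DUSP13, a phosphatase, had 1 and 3 counts in DMSO and 20 and 28 counts with compound 6. MYEOV had 3 and 4 counts in DMSO and 20 and 49 with compound 6, and the long noncoding RNA PRECSIT 3 and 3 counts and 21 and 20 counts. GPRC5A, TNS4, SP6 and BEAN1 rose by between 2.24 (BEAN1) and 2.51 (GPRC5A), with SP6 at an adjusted p of 0.0638 when the day was a block. ITGB1P1, an integrin pseudogene, was at 0 in both DMSO libraries and at 2.81 and 4.11 CPM with compound 6. All of its 31-base stretches also occur in other transcripts, so reads may have been assigned to it from them. INO80B-WBP1, a readthrough transcript with 97.06% of shared stretches, had 7.97 and 1.81 CPM in DMSO and 0 in both treated libraries, with an adjusted p of 0.0507 when the day was a block. No fold change is given for these genes with counts at or near 0.

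Among the largest decreases, TUBB1, a beta tubulin, had 18.98 and 20.9 CPM in the controls and 8.02 and 5.59 CPM after treatment (-1.57 ± 0.18 SE, adjusted p = 0.00425). KANK4 had 30.4 and 33.7 CPM and 13.9 and 13.6 CPM (-1.23 ± 0.15 SE, adjusted p = 0.00465), and SLC5A9, a sugar transporter, 14.8 and 16.3 CPM and 7.29 and 6.83 CPM (-1.14 ± 0.19 SE, adjusted p = 0.012). CTXN1, WDR54, the pseudogenes ZNF542P and ACSL3P1, and TMPO-AS1, an antisense RNA, fell by between 1.23 (WDR54) and 2.24 (CTXN1). With the day as a block, the adjusted p was 0.0583 for ZNF542P and 0.0568 for TMPO-AS1. The library kit was directional, and whether the counting used strand is not given in the sources used here. ZNF542P, TMPO-AS1 and INO80B-WBP1 were called in none of the 4 fits that left out a library. Most of the other genes of extreme fold change were called without compound 6 replicate 1 and in no other of these fits. SLC16A6, ITGB1P1, ACSL3P1 and TUBB1 were also called without compound 6 replicate 2 and without DMSO replicate 1 but not without DMSO replicate 2.

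Markers of other cell types were measured beside these changes. ESAM, an endothelial adhesion gene, rose from 4.92 and 5.83 CPM to 14.8 and 20.6 CPM (1.72 ± 0.21 SE, adjusted p = 0.00465). PECAM1, another endothelial gene, had 3 and 4 counts in DMSO and 8 and 10 counts with compound 6, and CDH5 had 1 count in each DMSO library and 3 and 5 counts with compound 6. CD68, a macrophage gene, and PDGFRB, a stellate cell gene, stood at 0.58 and 1.12 without passing the test, with both treated libraries above both controls. CD14 had 1 and 2 counts in DMSO and 9 and 12 counts with compound 6, and passed the test (adjusted p = 0.0476, adjusted p = 0.0568 with the day as a block), with no adjusted p from DESeq2. CD14 was called in none of the fits that left out a library, and ESAM in all but the fit without DMSO replicate 2. The endothelial markers summed to 6.20 and 6.73 CPM in DMSO and to 16.7 and 22.6 CPM with compound 6, most of it from ESAM. The stellate cell and fibroblast markers summed to 3.05 and 2.22 CPM in DMSO and to 4.37 and 5.76 CPM with compound 6. The macrophage and leukocyte markers summed to 3029 and 2409 CPM in DMSO and to 2693 and 2224 CPM with compound 6, nearly all of it from lysozyme (LYZ), whose groups overlapped. The part of other cell types in the results was not tested.

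Compound 6 was also set against compounds 4 and 5, also phenolic antioxidants. Compound 4 has tert-butyl groups in place of the cyclohexyl groups of compound 6 and is otherwise the same. Compound 5 has tert-butyl groups in place of both the cyclohexyl and the methyl groups of the rings, and its bridge carries a further methyl group. Each compound was given at its own IC50, so the concentrations differed and concentration and structure cannot be told apart. Replicate 1 of compounds 4 and 5, but no compound 6 library, is marked as merged. What the merging did to the calls was not tested. Against compound 4, 3 genes were higher and 3 lower with compound 6 (0.0224% of 13404 genes each, 0.0448% together), beside 1315 at an unadjusted p under 0.05 and 72 in DESeq2. RAB17, a GTPase of polarized transport, had 66.6 and 73.9 CPM with compound 4 against 33.6 and 35.3 CPM with compound 6 (difference of -1.03 ± 0.12 SE, adjusted p = 0.0257 in edgeR). HSD17B2, a steroid dehydrogenase, had 107 and 124 CPM and 62.1 and 64.4 CPM (-0.87 ± 0.12 SE), and CCR6, a chemokine receptor, 54.5 and 55.9 CPM and 30.2 and 31.9 CPM (-0.83 ± 0.10 SE). NPC1L1, the sterol importer, went the other way, with 25.8 and 28.99 CPM and 51.8 and 49.3 CPM (0.88 ± 0.12 SE). The gene RSC1A1 and another without a symbol, which share all of their 31-base stretches with other transcripts, were at 0 in both compound 4 libraries. With the day as a block 6 genes were called, 3 of them among these, and HSD17B2, NPC1L1 and RSC1A1 had adjusted p-values between 0.0581 and 0.0638. The number of calls was 2 without compound 6 replicate 1, 0 without compound 6 replicate 2, 117 without compound 4 replicate 1 and 1 without compound 4 replicate 2.

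CYP1A1 had 69.1 and 62.03 CPM with compound 4, above the 16.5 and 29.4 CPM with compound 6, and the difference of -1.501 (95% interval from -2.04 to -0.97) had an adjusted p of 0.0941 in edgeR. For CDKN1A the difference was -0.10, with an interval from -0.34 to 0.13. Missing the threshold does not show that the compounds act alike on these genes.

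Against compound 5, 691 genes were higher (5.16%) and 638 lower (4.76%) with compound 6, 9.91% together. With scaling by library size alone this split was 1052 higher and 417 lower, with upper-quartile scaling 1044 and 421, and in DESeq2 476 and 732. CYP3A4 had 370.4 and 421 CPM with compound 5 against 170.3 and 170.4 CPM with compound 6, a difference of -1.22 (-1.52 to -0.92, adjusted p = 0.00138 in edgeR). CYP1A1 had 11.4 and 7.45 CPM with compound 5 and was higher with compound 6, by 1.30 (0.71 to 1.90, adjusted p = 0.016 in edgeR).

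The list counts against compound 5 are given for the main scaling only, under which 5.16% of all genes were higher with compound 6 and 4.76% lower. Of 21 sterol synthesis genes 12 were higher with compound 6 than with compound 5 and 0 were lower. Of 37 stress response genes 13 were lower with compound 6, as were 12 of 25 endoplasmic reticulum genes and 13 of 20 AP-1 genes, with 0 higher. Lower were also 10 of 24 NRF2 genes and 7 of 12 metallothionein and zinc genes, with 1 higher in each list. In the mitosis lists 2 of 116 genes were lower with compound 6, a share below the 4.76% of all genes, and 0 higher. The total number of calls against compound 5 was 211 without compound 6 replicate 1, 1016 without compound 6 replicate 2, 143 without compound 5 replicate 1 and 278 without compound 5 replicate 2.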

How the data were processed

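RNA-seq of CYP3A4-overexpressing HepG2 cells was measured in 8 samples, 2 each for DMSO and compounds 4, 5 and 6, and samples were grouped by their labels. The authors checked reads with FastQC 0.12.0, estimated transcript abundance with Salmon 1.5.0 on the GENCODE 38 transcriptome (GRCh38) and deposited gene-level estimated counts as whole numbers, unscaled. Their own comparisons, for which the labels name DESeq2 1.38.3, were not used.

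The 60230 genes were filtered with the default expression filter of edgeR 4.0.16 (R 4.3.3, limma 3.58.1), which kept 13404. One quasi-likelihood model with TMM scaling was fitted to all 8 samples, so the 4 groups shared 1 estimate of the spread. Genes with a Benjamini-Hochberg adjusted p under 0.05 were called. Depth was 9472261 to 12052136 counts in the compound 6 and DMSO libraries, and floors of 3 counts cover counting error only. The code was tested on 5 simulated tables of compound 6 against DMSO, in which 200 genes among a mean of 13216 were shifted by a log2 value of 1. The test called 75.2% of them, and 7.87% of the calls were false, above the share that the cutoff of 0.05 sets. Both simulated compound 6 replicates carried the same shift, whereas the measured ones differed in strength, so these rates need not hold for the data. Coordinates of genes come from GENCODE 29 (GRCh38) and promoters from RefSeq (GRCh38.p14).

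Named were the 15 genes of highest and the 15 of lowest fold change among called genes with a symbol, a mean of at least 1 CPM and no overlap, up to 3 called members of each list, 8 fixed genes and 5 genes for each contrast with compounds 4 and 5. Further list members were named for their role after their values were seen, and some genes are not reported here. The members of the lists and the lists themselves were chosen with earlier results of these data known. The replicate number stands for the day in the labels. Deviations from group means in same-numbered samples correlated between -0.0826 and 0.16 over the pairs of groups, and a fit with this number as a block is given where it ended a call. Genes that shared over 50% of their 31-base stretches with other genes were treated as uncertain.

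Alternatives were DESeq2 1.42.0, other scalings, other filters on low counts, robust empirical Bayes, a test against a fold change of 1.2, a cutoff of 0.01, the groups compared alone, the block and leaving out each replicate.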

Additional observations from a re-analysis of the deposited data

How the results depend on the processing

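For compound 6 against DMSO the number of called genes was 590, and it was 1441 with no filter on low counts, 193 when tested against a fold change of 1.2 and 92 at a cutoff of 0.01. It ranged from 1 to 1001 when 1 of the 4 libraries was left out. DESeq2, the other scalings, the filter of 10 counts in every sample, robust empirical Bayes and a fit of these groups alone gave between 583 and 881. Pairing by the day, as a replicate block, gave 499 calls (319 higher, 180 lower), 461 of them among the 590. It ended the call of 22 of the 124 called genes named by rule, and the other 102 kept it. Further genes, named for their role, also lost it, as stated with each gene. Leaving out DMSO replicate 2 ended the call of all 124 named genes, compound 6 replicate 2 of 103, DMSO replicate 1 of 99 and compound 6 replicate 1 of 7. Over all 590 genes, the median fold changes in these 4 fits were 0.69 to 1.06 (higher genes) and -0.86 to -0.55 (lower genes) on the log2 scale.

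Against compound 4 the 6 calls became 72 in DESeq2, 294 with no filter and 2 with only the groups compared, and ranged from 0 to 117 when a library was left out. With the replicate block there were again 6. Against compound 5 the 1329 calls became 2117 with no filter and 1224 with the replicate block, and ranged from 143 to 1016 when a library was left out. Leaving out compound 4 or 5 libraries was chosen after seeing the data.

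The medians of 5 lists near 0 changed sign. That of the CYP3A, PXR and CAR list, 0.02, was -0.0049 with library size alone and ranged from -0.051 to 0.13 when a library was left out. That of amino acid and urea metabolism, -0.08, was 0.0061 with at least 10 counts in every sample and ranged from -0.0065 to 0.11. The complement list ranged from -0.055 to 0.17, the plasma carrier list from -0.14 to 0.062 and the hepatocyte marker list from -0.16 to 0.014. The cause was not tested. With 2 replicates a group and a lone sample assumed to vary like the other groups, small changes of low genes were not detectable.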

Other observations

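The families in this section were read from gene symbols after the fold changes had been seen, and they carry no test of their own. Of 11 tested S100 genes, which encode small calcium-binding proteins, 6 were called higher with compound 6 and 0 lower, beside 2.8% called higher among all genes. S100P had 139.8 and 98.8 CPM in DMSO against 301 and 362 CPM with compound 6 (1.48 ± 0.16 SE, adjusted p = 0.00425 in edgeR). S100A6 and S100A11 rose by 1.22 ± 0.19 and 1.23 ± 0.16, and S100A14 from 2.46 and 2.05 to 7.29 and 12.4 CPM. S100A10 and S100A1 stood at -0.14 and -0.12 and were not called, with overlapping groups. For S100P, S100A6 and S100A11, DMSO replicate 1 was higher than DMSO replicate 2.

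The tRNA synthetases of the cytosol, several of which are in the stress response list, gave 7 calls of 18, all higher, beside 2.8% of all genes, with a median of 0.38. SARS1, GARS1, CARS1, MARS1 and YARS1 rose by between 0.65 (YARS1) and 0.80 (SARS1), whereas RARS1, QARS1 and KARS1 stood at -0.18, 0.03 and 0.04. Their 17 mitochondrial counterparts had 0 calls in edgeR and a median of -0.08. The 3 tested TIMP genes, inhibitors of matrix proteases, were all called, beside 4.4% of all genes, but in both directions. TIMP1 and TIMP2 rose by 1.04 ± 0.17 and 1.33 ± 0.20, and TIMP3 fell from 222 and 219 to 124 and 106 CPM (-0.94 ± 0.11 SE, adjusted p = 0.00425 in edgeR). Of 7 HMGB and HMGN chromatin proteins 4 were called lower, beside 1.6% of all genes, among them HMGB2 (-0.74 ± 0.15) and HMGB1 (-0.52 ± 0.11), and 0 higher.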
